A study of Sus scrofa with 63 samples.

Results

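AHSP, HBM, HBB and RHCE are 4 genes of red cell precursors, and their hepatic expression was followed in HP offspring, pigs whose dams received a high protein diet during gestation. The genes were chosen by name, from the annotation of the porcine array, with earlier results of these data known. Each was represented by 1 probe-set. They are 4 of the 6765 genes that the annotation names by exactly 1 symbol. Liver RNA of German Landrace offspring was measured on 63 arrays, 1 per animal. The fetuses were sampled at 94 days post conceptionem (94 dpc, n = 16), and the piglets and pigs at 1 day (1 dpn, n = 16), 28 days (28 dpn, n = 15) and 188 days post natum (188 dpn, n = 16). All animals shared the gestational high protein diet, so every comparison is between stages and none is between diets. The fetuses came from other sows than the piglets and were killed by injection of T61, the newborns by injection of a sedative with ketamine, and the older pigs by stunning and bleeding at slaughter. Stage cannot be told apart from experiment and way of killing between 94 dpc and 1 dpn, nor from way of killing and an overnight fast between 1 and 28 dpn. The way of killing can change the blood left in the liver. Between 28 and 188 dpn experiment, killing and fast were the same.

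In mammals the fetal liver is the main site of red cell formation before the bone marrow takes over this role. Erythroid precursors divide and fill with hemoglobin, a protein of paired globin chains that each hold a heme group, and then lose their nucleus. AHSP is the chaperone that binds free alpha globin and keeps it stable until it meets a beta chain. HBM encodes the mu globin of the alpha globin cluster, and HBB encodes beta globin. RHCE encodes a protein of the Rh blood group complex in the red cell membrane.

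Values are log2 signals, on which a difference of 1 is a doubling of signal. The background of an array was taken as the 95th percentile of 23 control probe-sets, and averaged 6.10, 5.84, 5.65 and 5.64 at 94 dpc, 1, 28 and 188 dpn. All arrays had been scaled to the same trimmed mean, and array medians averaged 7.38, 7.23, 6.83 and 6.72 in the same order of stages. The 3′ minus 5′ difference of the actin controls, a sign of RNA quality, averaged 2.44, 1.59, 3.66 and 4.10. The same difference of the spike-in controls averaged 0.15, 0.94, 1.29 and 0.99. It was 0.0076 to 0.26 at 94 dpc and 0.58 to 1.22 at 1 dpn, without overlap. Between 94 dpc and 1 dpn stage thus cannot be told apart from this array measure, whose part in the changes was not tested. Fetus 6 at 94 dpc had the lowest mean correlation with the arrays of its stage (0.852) and the highest actin difference there (4.30).

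AHSP was high in the fetal liver and lower after birth. At 94 dpc its lowest, median and highest log2 signals were 12.12, 12.95 and 13.51. At 1 dpn they were 6.66, 8.14 and 9.19, at 28 dpn 7.03, 9.37 and 10.83, and at 188 dpn 7.88, 9.23 and 10.11. The fetuses lay above all animals of the later stages, and the 3 postnatal stages overlapped one another. AHSP was above background on all 63 arrays.

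HBM had a like course with a narrower spread. At 94 dpc its lowest, median and highest signals were 11.90, 12.36 and 13.03. The corresponding values were 7.58, 8.77 and 9.31 at 1 dpn, 9.88, 10.41 and 11.98 at 28 dpn, and 9.26, 10.06 and 10.68 at 188 dpn. All newborns lay below all pigs of 28 dpn. The highest signal at 28 dpn (11.98) passed the lowest fetal one (11.90), and newborns and pigs of 188 dpn overlapped at the edges.

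RHCE was high in the fetuses alone. Its lowest, median and highest signals were 10.52, 11.73 and 12.30 at 94 dpc. After birth they were 2.75, 6.81 and 7.56 at 1 dpn, 5.38, 6.21 and 7.38 at 28 dpn, and 4.37, 5.94 and 6.91 at 188 dpn. RHCE was above background on all 16 arrays at 94 dpc, and on 13 of 16, 12 of 15 and 12 of 16 arrays at the postnatal stages. The low value of 2.75 belonged to newborn 5, the next lowest newborn being at 5.24. Postnatal values of RHCE are close to background, so the size of its change is less exact than that of AHSP or HBM.

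HBB had a flatter course. Its lowest, median and highest signals were 7.95, 8.69 and 8.98 at 94 dpc, 7.11, 8.10 and 8.78 at 1 dpn, 5.99, 7.11 and 8.13 at 28 dpn, and 5.74, 7.20 and 8.45 at 188 dpn. The stages overlapped throughout the course. Beta-like globin genes resemble each other in sequence, and whether this probe-set measures HBB alone was not tested. Signals of different probe-sets cannot be compared as amounts of RNA.

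**Figure D1:**
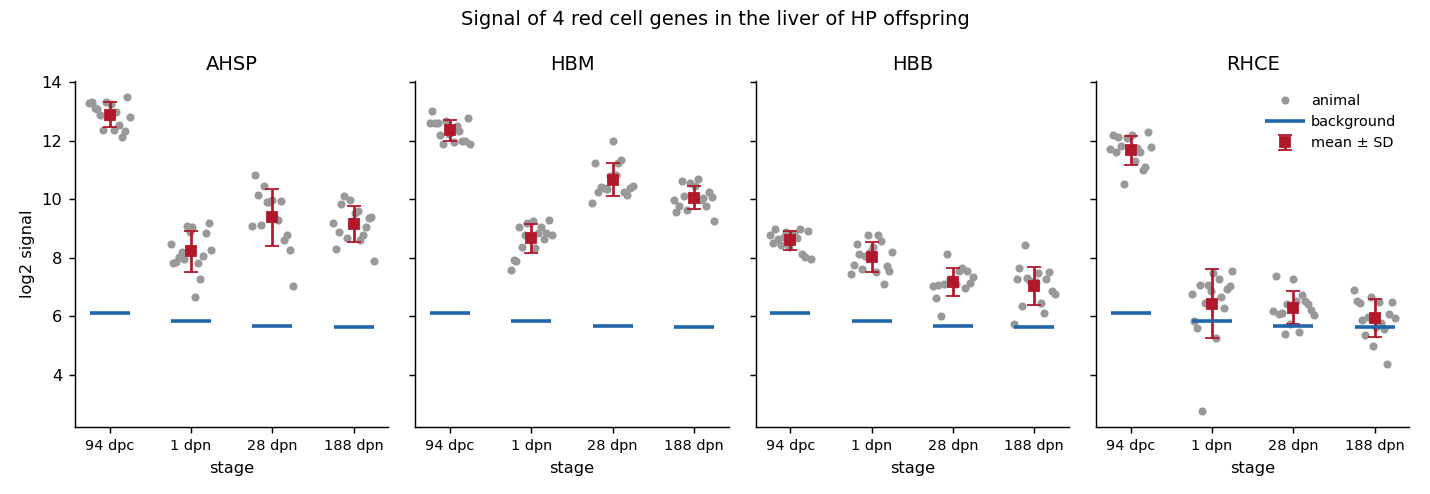
Log2 signal (y axis) of AHSP, HBM, HBB and RHCE at the 4 stages (x axis), with grey points for animals, red squares with bars for the mean ± SD of 16, 16, 15 and 16 animals, and blue lines for the mean background. AHSP averaged 12.89 and RHCE 11.68 at 94 dpc, and RHCE lay near the background at the later stages.

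Period I compared newborns with fetuses. All 4 genes fell, by limma's moderated test with Benjamini-Hochberg adjustment over 12839 probe-sets, of which 34% fell and 22.9% rose at an adjusted p under 0.05. AHSP averaged 8.22 ± 0.69 at 1 dpn and 12.89 ± 0.43 at 94 dpc (SD, n = 16 each), a change of -4.67 (SE 0.20, adjusted p = 3.32e-19 in limma) or 25.5-fold. HBM averaged 8.66 ± 0.51 at 1 dpn and 12.36 ± 0.35 at 94 dpc, a change of -3.70 (SE 0.15, adjusted p = 3.01e-19 in limma) or 13.0-fold. RHCE averaged 6.43 ± 1.18 at 1 dpn and 11.68 ± 0.49 at 94 dpc, a change of -5.25 (SE 0.30, adjusted p = 1.00e-15 in limma). RHCE entered this test through its level in the fetuses alone, and such a gene can more easily fall than rise. With no filter on level its change passed as well (adjusted p = 1.48e-14 in limma). Without newborn 5 the change of RHCE was -5.01. For AHSP, HBM and RHCE all newborns lay below all fetuses, which held for 3.2% of the probe-sets tested. HBB averaged 8.02 ± 0.51 at 1 dpn and 8.60 ± 0.33 at 94 dpc, a change of -0.58 (SE 0.15, adjusted p = 0.00126 in limma), and its newborns and fetuses overlapped. With the actin difference as a covariate the change of HBB was -0.45 and no longer passed (adjusted p = 0.0512 in limma). In a bulk sample fewer red cell precursors and less RNA per precursor cannot be told apart.

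Period II compared 28 dpn with 1 dpn, and here the genes parted. HBM averaged 10.66 ± 0.56 at 28 dpn (n = 15) and 8.66 ± 0.51 at 1 dpn (n = 16), a rise of 2.01 (SE 0.19, adjusted p = 4.84e-11 in limma) or 4.02-fold. All pigs of 28 dpn lay above all newborns in HBM, as did 4.95% of the 13078 probe-sets tested. AHSP averaged 9.38 ± 0.97 at 28 dpn and 8.22 ± 0.69 at 1 dpn, a rise of 1.17 (SE 0.29, adjusted p = 5.64e-04 in limma), with overlap between the stages. HBB averaged 7.18 ± 0.48 at 28 dpn and 8.02 ± 0.51 at 1 dpn, and fell by 0.84 (SE 0.17, adjusted p = 6.60e-05 in limma). In this period 28.8% of probe-sets rose and 42.9% fell. RHCE did not pass the filter on level, and its means differed by -0.13 (adjusted p = 0.767 in limma with no filter). The actin difference was 3.15 to 4.02 at 28 dpn and 0.75 to 3.16 at 1 dpn, so it went almost wholly with stage. With it as a covariate the change of AHSP was 0.29 (adjusted p = 0.795 in limma), that of HBM 1.29 (0.0404) and that of HBB -1.82 (0.00204), and with quantile normalization HBB changed by -0.49 (0.0123).

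In period III, 188 dpn against 28 dpn, HBM fell. It averaged 10.06 ± 0.40 at 188 dpn (n = 16) and 10.66 ± 0.56 at 28 dpn (n = 15), a change of -0.61 (SE 0.17, adjusted p = 0.0051 in limma), in a period in which 22.5% of 12418 probe-sets fell and 12.3% rose. AHSP changed by -0.23 (SE 0.28, adjusted p = 0.553 in limma) and HBB by -0.14 (SE 0.20, adjusted p = 0.626 in limma). RHCE was again not tested, and its means differed by -0.36 (adjusted p = 0.32 in limma with no filter).

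The order of the 4 stages differed between the genes. All 63 arrays were put into 1 limma fit, with 13841 probe-sets, for the pairs of stages that are not adjacent in time. AHSP and HBM were highest at 94 dpc, followed by 28 dpn, 188 dpn and 1 dpn. AHSP was higher at 188 dpn than at 1 dpn by 0.94 (SE 0.24, adjusted p = 4.70e-04 in limma) and HBM by 1.40 (SE 0.16, adjusted p = 1.58e-11 in limma), in a comparison in which 27.2% of probe-sets rose. The actin difference was 3.39 to 4.88 at 188 dpn and 0.75 to 3.16 at 1 dpn, without overlap. Its part in these 2 differences was not tested. At 28 dpn AHSP was still 11.4-fold and HBM 3.24-fold below its level at 94 dpc, where 49.8% of probe-sets were lower. HBB and RHCE were highest at 94 dpc, followed by 1, 28 and 188 dpn. The neighbours that did not differ beyond their spread were 188 and 28 dpn for AHSP and HBB, and all 3 postnatal stages for RHCE (adjusted p between 0.092 and 0.669 in limma).

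Whether the genes changed unequally was tested on the log2 ratio of each pair within an array, which does not depend on the scaling of the array. These tests were added after the changes above were seen. The ratios with HBB rest on a probe-set that was not tested for measuring HBB alone. Of 18 comparisons (6 pairs in 3 periods, permutation test with 100000 resamples, two-sided), 6 of 6 passed in period I, 5 of 6 in period II and 0 of 6 in period III after Benjamini-Hochberg adjustment. In each period 3 of the 6 ratios hold RHCE, which was near background after birth and did not pass the filter in periods II and III, so the size of these changes is less exact. Without newborn 5, a run chosen after its value was seen, 5 of 6 passed in period I. The ratio of AHSP to RHCE then changed by 0.33 (permutation, adjusted p = 0.0694), against 0.58 (adjusted p = 0.0348) with that animal. The ratio of HBM to HBB averaged 3.49 ± 0.72 at 28 dpn and 0.64 ± 0.57 at 1 dpn (SD), a change of 2.85 (SE 0.24, permutation p = 1e-05, adjusted p = 2.25e-05), the raw p being the smallest that these resamples give. The ratio of AHSP to HBM averaged -0.44 ± 0.69 at 1 dpn and 0.53 ± 0.23 at 94 dpc, a change of -0.97 (SE 0.18, permutation, adjusted p = 2.25e-05). HBM thus lost less signal than AHSP between 94 dpc and 1 dpn, an interval that includes late fetal life. HBB against RHCE in period II did not pass (-0.71, SE 0.34, permutation, adjusted p = 0.0636).

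**Figure D2:**
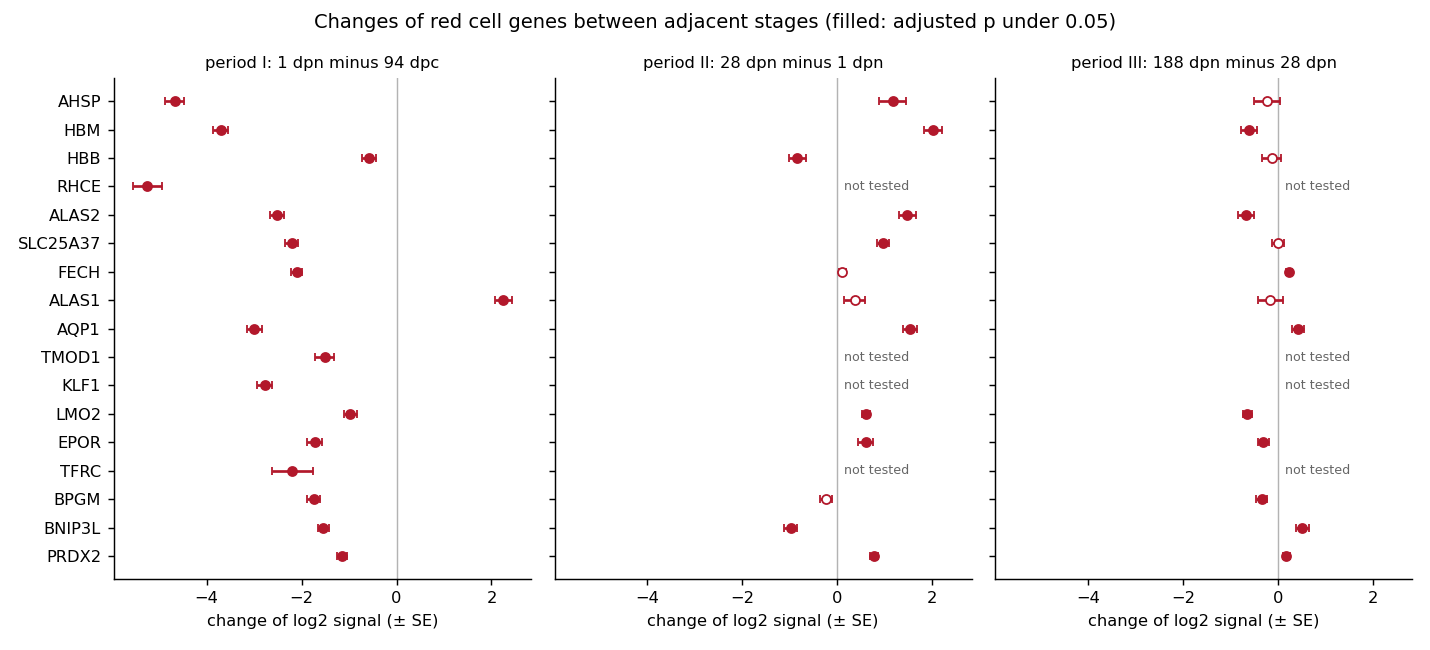
Change of log2 signal (x axis, ± SE from limma) of the 4 genes and of other red cell genes (y axis) in periods I, II and III, each as the later minus the earlier stage, with filled points for an adjusted p under 0.05. RHCE changed by -5.25, AHSP by -4.67 and ALAS2 by -2.52 in period I, and ALAS1 by 2.25.

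Other genes of red cell formation also fell in period I. The counts that follow stand beside 34% of all probe-sets tested that fell and 22.9% that rose, with a median change of -0.10. Of 12 genes of heme synthesis 8 fell and 2 rose, with a median of -0.66. ALAS2, the erythroid form of the first enzyme of heme synthesis, fell by 2.52 (SE 0.15, adjusted p = 2.19e-15 in limma), and averaged 10.27 ± 0.50 at 1 dpn and 12.78 ± 0.35 at 94 dpc. SLC25A37, the iron importer of erythroid mitochondria, fell by 2.20, and FECH, which puts the iron into heme, by 2.10. ALAS1, the form of the first enzyme that is used outside red cells and makes heme for liver cytochromes, rose by 2.25 (SE 0.18, adjusted p = 1.52e-12 in limma). The 2 forms of this enzyme thus moved in opposite directions between 94 dpc and 1 dpn.

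Of 7 erythroid transcription factors found on the array, 4 passed the filter on level, and all 4 fell. A gene can pass this filter through 1 stage alone. With no filter 6 of the 7 fell and 1 did not pass, where 5204 of 23935 probe-sets fell. KLF1, which activates adult globin genes, fell by 2.78 (SE 0.16, adjusted p = 1.19e-15 in limma), and averaged 7.01 ± 0.43 at 1 dpn and 9.79 ± 0.50 at 94 dpc. LMO2 fell by 0.97, LDB1 by 0.90 and CITED2 by 0.62. GATA1, TAL1 and NFE2 were not found by symbol on the array. Of 11 genes of erythropoietin signaling and iron uptake 6 fell and 1 rose, with a median of -0.47, and with the mean of a gene's probe-sets 4 of 8 fell and 1 rose. TFRC, the transferrin receptor, fell by 2.19, EPOR, the receptor for erythropoietin, by 1.72, and JAK2, its kinase, by 0.69, while the iron transporter SLC11A2 rose by 1.21. TFRC and JAK2 passed the filter through the fetuses alone, and with no filter 6 of 13 genes of this list fell and 2 rose.

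Among 14 genes of red cell enzymes and maturation 9 fell and 3 rose, with a median of -0.67. TFDP2 fell by 2.08, ALOX15, a lipoxygenase of reticulocytes, by 1.97, BPGM, which makes the 2,3-bisphosphoglycerate that lowers the oxygen affinity of hemoglobin, by 1.75, and BNIP3L, needed to clear mitochondria from reticulocytes, by 1.54. Of 6 genes of the red cell membrane 4 fell and 1 rose. AQP1, a water channel that vessels also carry, fell by 3.00 and TMOD1, which caps actin filaments of the membrane skeleton, by 1.51, while CD47 rose by 1.16. TFDP2, ALOX15 and TMOD1 passed the filter on level through the fetuses alone. With no filter the counts of both lists were the same.

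Lists of other cell types were counted in the same way. Of 9 genes of neutrophils and myeloid precursors 8 fell, with a median of -1.53, and the mean signal of the list on an array lay between 6.08 and 8.34 at 1 dpn and between 6.78 and 9.88 at 94 dpc. LTF fell by 2.34 and ELANE, an enzyme of early granules, by 1.28. ELANE, PRTN3, S100A12 and PGLYRP1 passed the filter on level through the fetuses alone. With no filter 8 of 11 genes of this list fell, where 5204 of 23935 probe-sets fell. Of 7 genes of megakaryocytes and platelets 6 fell. PPBP, a chemokine of platelets, fell by 2.83 and ITGA2B, a platelet integrin, fell by 0.85. PPBP too passed the filter through the fetuses alone, and with no filter 6 of 8 genes of its list fell. Of 3 genes of hematopoietic stem and progenitor cells 1 rose and 1 fell, with a median of 0.02. Of 11 macrophage genes 4 rose and 0 fell, and without fetus 6, in which this list was lowest, 3 rose and 2 fell. Of 15 hepatocyte genes 8 fell and 3 rose, with a median of -0.21, ALB changing by 0.06. With quantile normalization this list turned, and 8 rose and 2 fell, with a median of 0.13. Of 9 genes that take up or break down hemoglobin and heme 4 rose and 3 fell, with a median of 0.02, and with quantile normalization 6 rose and 0 fell. Those that fell were FTL and FTH1, the ferritin chains that store iron, and TF, transferrin. Those that rose included CD163, the hemoglobin scavenger receptor of macrophages, by 1.46 and HPX, which binds free heme, by 1.27. The part of these other cell types in the changes of the 4 genes was not tested.

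In period II 28.8% of all probe-sets tested rose and 42.9% fell, with a median change of -0.14. Of 12 genes of heme synthesis 8 rose and 1 fell in this period. ALAS2 rose by 1.47 (SE 0.19, adjusted p = 2.35e-08 in limma), in the same direction as AHSP and HBM. Of 4 transcription factors tested 3 rose, LMO2 by 0.60. These were not the same 4 as in period I. GATA2 entered and rose by 1.25 (adjusted p = 0.00296 in limma), while KLF1 did not pass the filter on level. With no filter 3 of 7 rose and 1 fell. Of 8 genes of erythropoietin signaling and iron uptake 5 fell and 2 rose, with a median of -0.38. EPOR rose by 0.59, and IREB2, a regulator of iron uptake and storage, fell by 1.70. With centring on the median 2 of these 8 fell and 3 rose. FECH changed by 0.11 (adjusted p = 0.247 in limma), and BNIP3L fell by 0.98. Of 12 genes of red cell enzymes 6 rose and 1 fell. With the actin difference as a covariate 4 genes of heme synthesis, 1 of the red cell enzymes and 1 transcription factor rose. Of 19 genes of the cell cycle 16 fell in period II, whereas 2 fell, 2 rose and 15 did not pass in period I. HAMP, which encodes the iron hormone hepcidin, fell by 5.61 in period II and rose by 6.48 in period III. In period III ALAS2 fell by 0.68, EPOR by 0.32 and LMO2 by 0.66, whereas 6 of 12 genes of heme synthesis rose and 2 fell. Of all probe-sets tested in period III 12.3% rose and 22.5% fell.

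The 4 genes were then compared across animals of the same stage. Animals were sib pairs, at 94 dpc and 1 dpn the lightest and heaviest, which the p-values do not allow for. Pearson's r and Spearman's rho were computed for 6 pairs at each of 4 stages, with permutation p-values adjusted over the 24 relations. At 94 dpc 3 of 6 pairs passed. AHSP and RHCE had r = 0.86 (rho = 0.83, permutation p = 2e-05, adjusted p = 2.4e-04, n = 16), AHSP and HBM r = 0.85 (rho = 0.89, permutation p = 6e-05, adjusted p = 4.8e-04), and HBM and RHCE r = 0.75 (rho = 0.68, permutation p = 5.1e-04, adjusted p = 0.00306). Without the 2 fetuses farthest from the median of the first gene r was 0.82, 0.83 and 0.70 for these pairs. The ranks of HBM and RHCE passed (permutation, adjusted p = 0.0268), but not with quantile normalization (rho = 0.65, permutation, adjusted p = 0.0536). Nor did they pass without fetus 6 (rho = 0.61, permutation, adjusted p = 0.0864), while r passed in both runs. Fetus 15 was highest in AHSP and RHCE, and fetus 13 was lowest in AHSP (12.12) and next to lowest in RHCE (11.01). Of all probe-sets tested in period I, 0.117% had an r with AHSP at least as high as RHCE and 0.195% at least as high as HBM.

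The calls by r did not hold without the fetuses lowest in AHSP. Fetuses 6, 10, 13 and 14, the 4 with the lowest AHSP, were left out in a run chosen after their values were seen. Over the remaining 12 fetuses r was 0.72 for AHSP with HBM (permutation, adjusted p = 0.0886), 0.71 for AHSP with RHCE (adjusted p = 0.0886) and 0.52 for HBM with RHCE (adjusted p = 0.287), and none passed. The ranks of AHSP and HBM still passed (rho = 0.87, permutation, adjusted p = 0.00456). Leaving out animals by their AHSP level also narrows the range of AHSP, which by itself lowers r. The pairs of HBB did not pass at 94 dpc, with r of 0.47 with AHSP, 0.53 with HBM and 0.30 with RHCE. These values depended on single animals. Without the 2 fetuses farthest from the median of AHSP, HBM and HBB in turn, r was 0.17, 0.75 and 0.26.

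At 1 dpn 0 of 6 pairs passed by r, which lay between 0.06 and 0.48. The highest was HBM with RHCE (r = 0.48, permutation, adjusted p = 0.222), whose ranks passed (rho = 0.68, permutation, adjusted p = 0.0268) but did not with quantile normalization (rho = 0.52, permutation, adjusted p = 0.146). Newborn 5 was far below the others in RHCE alone, with AHSP at 8.21 and HBM at 8.35. Without it, chosen after its value was seen, r was 0.66 for AHSP with RHCE (permutation, adjusted p = 0.035) and 0.62 for HBM with RHCE (adjusted p = 0.0487). Since RHCE was near background at this stage, and HBM itself followed the background of the array (r = 0.74, permutation, adjusted p = 0.0278 over 32 relations; rho, adjusted p = 0.211), the part of background in these relations was not tested. At 28 dpn 0 of 6 pairs passed and at 188 dpn 1 of 6, AHSP with HBM (r = 0.86, rho = 0.88, permutation p = 2e-05, adjusted p = 2.4e-04, n = 16). The spike-in difference at 188 dpn was 1.39 to 1.70 on the arrays of pigs 7 to 10 and 0.65 to 0.94 on the others. The part of array measures in this relation was not tested. Whether r differs between stages was not tested.

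**Figure D3:**
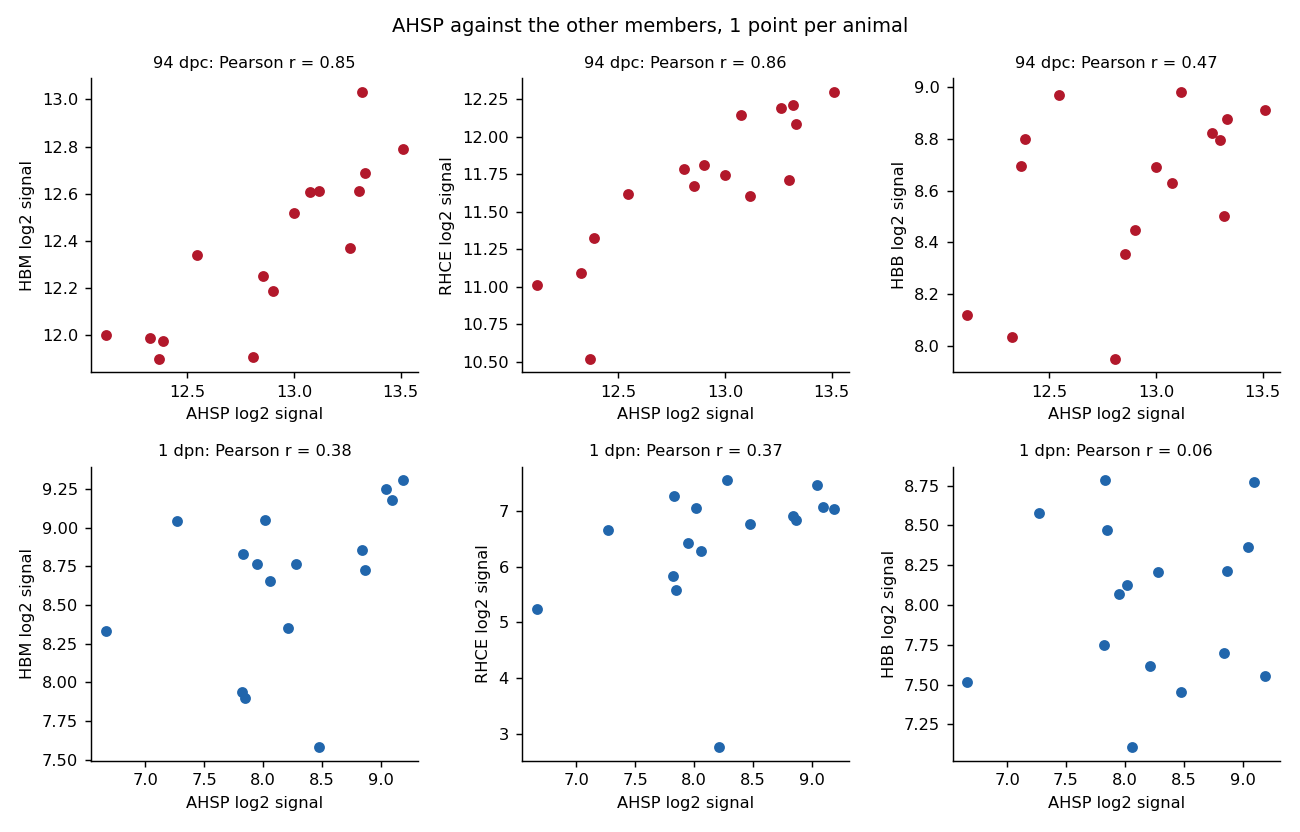
Log2 signal of HBM, RHCE and HBB (y axes) against that of AHSP (x axes) in the 16 fetuses at 94 dpc (top, red) and the 16 newborns at 1 dpn (bottom, blue), 1 point per animal. At 94 dpc r was 0.85 with HBM and 0.86 with RHCE, and at 1 dpn the low point of RHCE at 2.75 is newborn 5.

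AHSP was also set against the mean log2 signal of gene lists, over 15 lists at 94 dpc and 1 dpn (30 relations). At 94 dpc it followed heme synthesis (r = 0.90, permutation, adjusted p = 3e-04), the cell cycle (r = 0.88, adjusted p = 3e-04), erythropoietin signaling and iron uptake (r = 0.84), red cell enzymes (r = 0.84), erythroid transcription factors (r = 0.74) and the red cell membrane (r = 0.70). Single genes reached 0.95 for ALAS2, 0.89 for BPGM, 0.87 for EPOR, 0.86 for CCNB1 and 0.83 for KLF1, while ALAS1 had -0.66. The median r of all probe-sets with AHSP was 0.05, and their 95th percentile was 0.51. Megakaryocytes and platelets had r = 0.57 (permutation, adjusted p = 0.0506), and their ranks passed (rho = 0.65, permutation, adjusted p = 0.0302). Hepatocytes had r = -0.30 (permutation, adjusted p = 0.547), macrophages 0.18 and neutrophils 0.15 (adjusted p = 0.81 each). These last lists passed by neither r nor rho. Without the 2 fetuses farthest from the median of AHSP, r was 0.66 for megakaryocytes and platelets and 0.58 for neutrophils. It was 0.415 for macrophages and -0.16 for hepatocytes. At 1 dpn none of the 15 lists passed, the highest being red cell enzymes (r = 0.58, permutation, adjusted p = 0.0642). The correlation of AHSP with the array median at 94 dpc was 0.54 (permutation, adjusted p = 0.339 over 32 relations). With the spike-in difference r was -0.46 (permutation, adjusted p = 0.339) and rho -0.55 (permutation, adjusted p = 0.493). Without the 2 arrays farthest from the median of that difference r was -0.65. The part of these array measures in the correlations of AHSP was not tested.

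**Figure D4:**
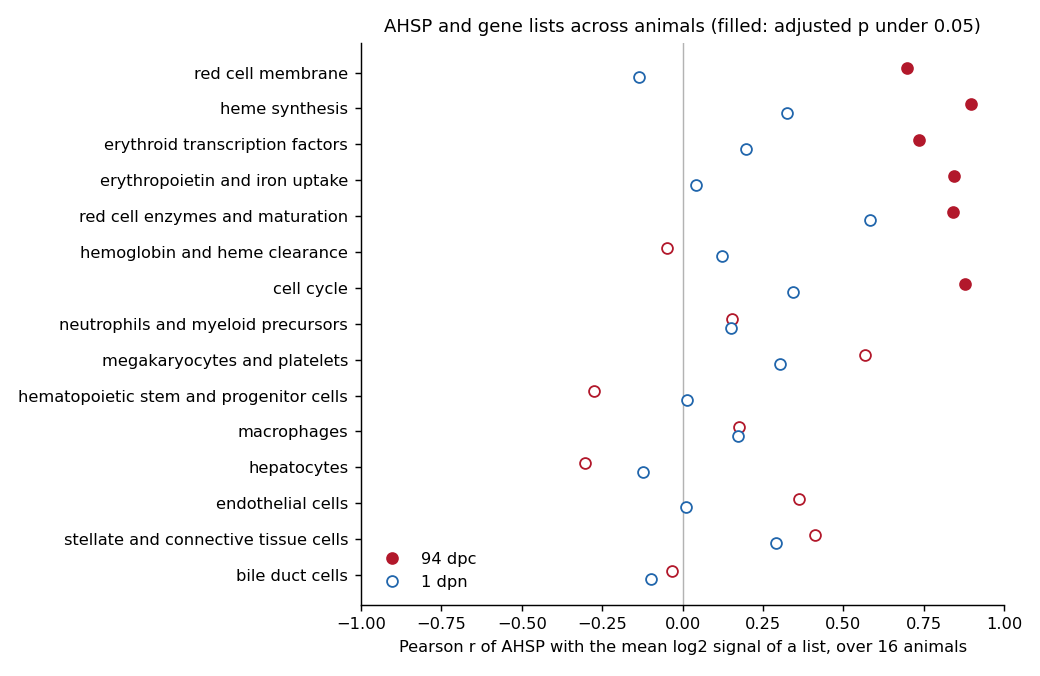
Pearson's r of AHSP with the mean log2 signal of each gene list (y axis) over the 16 fetuses at 94 dpc (red) and the 16 newborns at 1 dpn (blue), with filled points for an adjusted permutation p under 0.05. Heme synthesis (0.90) and the cell cycle (0.88) lie highest at 94 dpc, and no list passed at 1 dpn.

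The genes most like the 4 were ranked by the r of their deviations from the stage mean with the mean deviation of the 4 genes, over the 32 animals of 94 dpc and 1 dpn. As a description, the highest of those with 1 symbol were FECH (0.70), LOC100738720 (0.68), ALAS2 (0.67), LAMP2 (0.66), BNIP3L (0.65), TMX1 (0.65), RNF13 (0.64), C1D (0.61), DPYD (0.61) and PPP1R2 (0.61). The tenth stood at rank 23 of 12839 probe-sets, and 10 of those 23 had no single symbol. RHCE had the widest spread of the 4 genes at 1 dpn (SD 1.18), with newborn 5 at 2.75, and the order changed without this animal. Over the other 31 animals, in a run chosen after its value was seen, 4 of the 10 stayed among the first 10 named, with r of 0.69 for ALAS2, 0.63 for FECH, 0.63 for LOC100738720 and 0.63 for TMX1. Of the 10 named over 32 animals, 6 fell in period I, where 34% of probe-sets fell, and RNF13 rose by 0.36. HBB, though part of the mean, stood at rank 49 of 12839, and at rank 32 without newborn 5.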

How the data were processed

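Liver RNA was hybridised to Affymetrix porcine arrays. The authors deposited log2 signals, with GCOS 1.1.1 named in the submitters' processing notes. Linear signals of each array have a trimmed mean of 500.1 to 500.2, with no other normalization between arrays seen. The study's own model, with GCRMA values, sex and mother, was not refitted. The number of arrays and the distance from background limit precision.

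Control probe-sets (188 of 24123) were excluded. Gene symbols follow the platform annotation (1 symbol on 10069 probe-sets, several on 198, none on 13668), and AHSP was matched by symbol because its gene ID differs from RefSeq's. Each period was fitted on its pair of stages with limma 3.58.1 in R 4.3.3 (lmFit, eBayes, two-sided). A probe-set entered if it exceeded the array's 50th percentile in at least 50% of animals at either stage. P-values were Benjamini-Hochberg adjusted, with a threshold of 0.05. Lists used each gene's probe-set of the highest mean. Named list genes are up to 4 with the largest change in period I, with a few more chosen after their values were seen. Correlations used 100000 permutations (Python 3.11.15). Members and lists were chosen with earlier results of these data known. The ratio tests, the relations of AHSP with lists, the 1 fit of 63 arrays, and the runs without newborn 5 and without 4 fetuses were added after seeing the data. Procedures were tested on simulated data. Alternatives were other filters, normalizations, tests, weights and thresholds, an actin covariate, the mean of a gene's probe-sets and runs without animals. Animals were sib pairs that the labels do not identify, the lightest and heaviest at 94 dpc and 1 dpn, so they are not all independent and p-values do not allow for this.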

Additional observations from a re-analysis of the deposited data

How the results depend on the processing

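Of 125 values of the changes of the 4 genes under the alternatives, 122 kept their direction and their side of the threshold. HBB in period III, not called in either, changed sign to 0.0936 as the difference of medians in the Wilcoxon rank-sum run. The other exceptions came with the actin difference as a covariate, where HBB in period I changed by -0.45 and AHSP in period II by 0.29; the covariate nearly coincides with stage in period II. Of 42 alternative values of the correlations 37 kept their call. Without fetuses 6, 10, 13 and 14 at 94 dpc, r was 0.72 (AHSP with HBM), 0.71 (AHSP with RHCE) and 0.52 (HBM with RHCE) and no longer passed, with 12 animals and a narrower range of AHSP. Without newborn 5 at 1 dpn, r was 0.66 (AHSP with RHCE) and 0.62 (HBM with RHCE) and passed. Runs without these animals were chosen after seeing the data. Each gene had 1 probe-set, so the mean of probe-sets leaves its values as they are. Probe-sets called numbered 7309, 9375 and 4315 in the 3 periods, but 4472 and 5321 in periods I and II with a filter at the 75th percentile, and 4686 in period II with the actin covariate. Of the called probe-sets 40.2%, 40.1% and 35.4% rose, against 50.9%, 54.6% and 56.2% with centring on the median. Counts over gene lists moved by over 1.5 times in 25 of 128 cases. No paired analysis was possible because the labels give no replicate numbers, sib pairs or mothers. Signals of RHCE after birth are limited by background.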

Other observations

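The array also carries control probe-sets for the erythropoietin receptor, apart from its regular EPOR probe-set. The 3′ control averaged 8.48 ± 0.33, 6.99 ± 0.54, 7.15 ± 0.54 and 6.77 ± 0.46 on the log2 scale at 94 dpc, 1, 28 and 188 dpn (SD, n = 16, 16, 15 and 16). EPOR itself averaged 8.76 ± 0.40, 7.04 ± 0.49, 7.63 ± 0.34 and 7.32 ± 0.31 at the same stages. The 3′ control and EPOR were both highest in the fetuses, and the other controls of this receptor are not given here. HBE1, an embryonic globin, averaged 6.99 ± 0.66 at 94 dpc and 6.24 ± 1.00 at 1 dpn, close to background, and did not pass the filter on level. In the fit with no filter it changed by -0.75 (SE 0.29, adjusted p = 0.0444 in limma).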
